A study of Rattus norvegicus with 12 samples.

Results

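The enzymes of the pentose phosphate pathway were described in the ovaries of 12 rats, with 4 rats in Control, 4 in PCOS and 4 in PCOS-MV. Of the 7 enzyme genes looked for by symbol in the deposited table, 6 were found among its 19730 genes: H6pd, Pgls, Rpe, Rpia, Tkt and Taldo1. Pgd and other enzymes of the oxidative branch are not analysed here. All 6 genes found were among the 13430 genes tested. All rats were female wild type Sprague Dawley animals, 15 weeks old by the labels. The Control rats received standard food. The PCOS rats, a model of polycystic ovary syndrome, received letrozole, which blocks the making of oestrogen from androgen, at 1 mg/kg/day with a high-fat diet for 30 days. The PCOS-MV rats received the same and then mogroside V, a sweet glycoside of monk fruit, at 600 mg/kg/day for 30 days. By the study's schedule all rats were killed at the end of the mogroside V period, after the stated letrozole days were over. Whether the high-fat diet went on in that period was not stated. The study kept as model rats those whose vaginal smears stayed in metestrus and diestrus. A vehicle for the PCOS rats in the second month and the cycle stage at collection were not given in the sources used here, so mogroside V cannot be told apart from the gavage itself.

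The pathway branches off glycolysis at glucose phosphate and runs in the cytosol. Its oxidative branch yields NADPH, the electron donor for steroid, sterol and fatty acid synthesis and for glutathione reduction, and ends in the pentose ribulose phosphate. Its non-oxidative branch interconverts pentoses with the sugars of glycolysis, so that ribose for nucleotides can be made or returned. In the ovary, NADPH serves the cytochrome P450 enzymes that turn cholesterol into progesterone, androgens and oestrogens. H6pd carries out the opening steps of a separate oxidative branch inside the endoplasmic reticulum, Pgls opens the lactone ring in the cytosol, Rpia makes ribose phosphate from ribulose phosphate, Rpe makes xylulose phosphate from it, and Tkt and Taldo1 move carbon units between sugars.

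The values were FPKM, fragment counts scaled to transcript length and library depth, which the authors computed per gene. FPKM summed to between 339830 and 373758 per library. Read from the spacing of the lowest values, the depth was roughly 30200000 to 36800000 fragments per library. On the spacing lay 26.5% to 30.6% of the low values, against 4% for an even spread and a spacing fixed beforehand. The spacing was picked from the same values within a preset range, so part of that excess is built in. At that depth the lowest value of Rpia, the least abundant member, stood for an estimated 595 fragments, a counting error of 4.10%. Control replicates 1 and 3 carried the most adipocyte marker RNA, with Adipoq at 15.3 and 26.02 FPKM against 3.68 and 7.93 in the other Control libraries. Control replicate 3 also held the oviduct epithelium marker Pax8 at 10.7 FPKM, against 0.27 to 0.87 in the other 11 libraries. Each of the 5 smooth muscle markers was highest in that library among the Control rats. Cnn1 was at 51.0 FPKM there against 9.08 to 15.6 FPKM in the other Control libraries, and Des at 78.8 FPKM against 19.1 to 27.2 FPKM. Of the 6 adipocyte markers 3 were tested, and all 3 were lower in PCOS than in Control. All 6 adipocyte markers together summed to 25.3 to 83.6 FPKM in Control, 13.9 to 25.4 FPKM in PCOS and 10.7 to 17.1 FPKM in PCOS-MV, with Plin1, Lep and Retn under a mean of 1 FPKM. The part of these markers in the results was not tested. Members and called genes compared with Control were therefore also fitted without Control replicates 1 and 3, a choice made after these values were seen. The values are given below for the members and for the calls that were lost.

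Tkt was the most abundant member in each of the 12 libraries, Taldo1 the next in each of them, and the 4 others lay close together. Over the 12 libraries the mean level was 165 FPKM for Tkt and 90.1 FPKM for Taldo1. It was 23.3 FPKM for Rpe, 22.7 FPKM for H6pd, 18.7 FPKM for Pgls and 14.9 FPKM for Rpia. Of the genes tested, 97.9% had a lower mean level than Tkt, 95.4% a lower one than Taldo1 and 62.9% a lower one than Rpia. The order among the lower 4 was not fixed. Rpe exceeded H6pd in 6 of 12 libraries, H6pd exceeded Pgls in 9 of 12 and Pgls exceeded Rpia in 9 of 12, and the ranges of each of these neighbours overlapped.

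**Figure D1:**
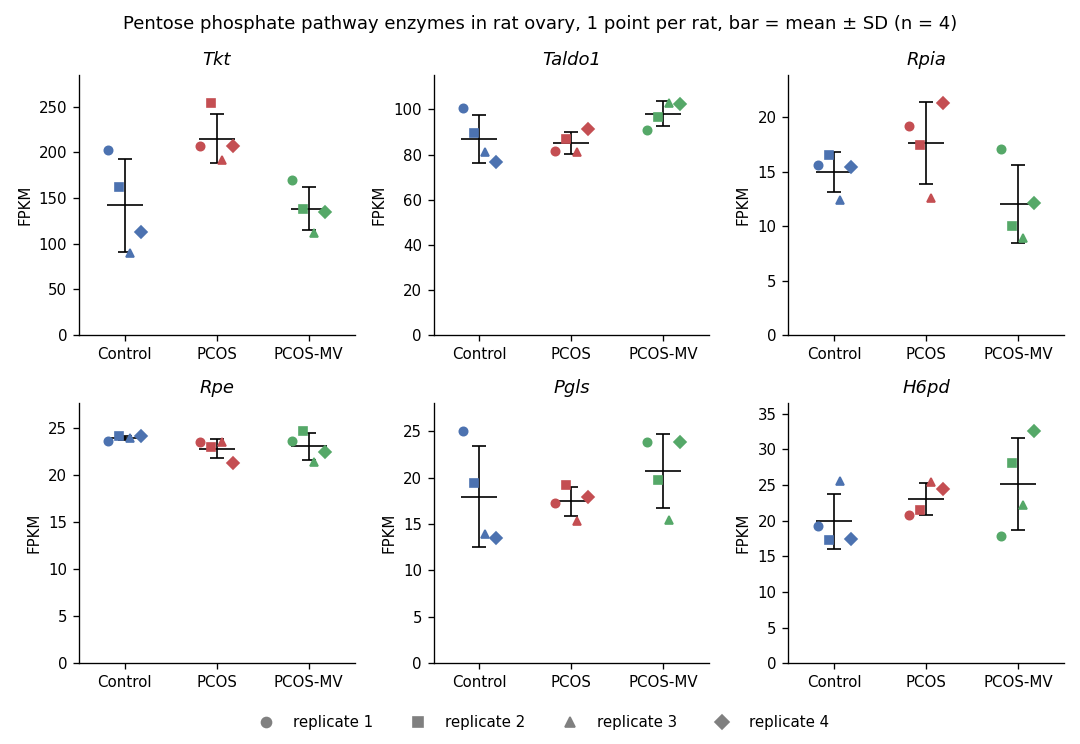
FPKM of the 6 pathway enzymes (vertical axis, from 0) in each Control, PCOS and PCOS-MV rat, with the group mean and SD as bars (n = 4) and the replicate number as the marker shape. All 4 PCOS-MV values of Tkt, 112 to 169 FPKM, lie below all 4 PCOS values, 192 to 254 FPKM, while Rpe stays between 21.3 and 24.7 FPKM in every library.

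The promoters of Tkt and Taldo1 are shown because these 2 enzymes act next to each other in the non-oxidative branch, make up most of the summed FPKM of the 6 members and differed in how they varied. The stretches run from 250 bases before to 50 bases after the RefSeq start in GRCr8 and are written 5′ to 3′ on the gene's strand. That of Tkt is chr16:5729982-5730281 and that of Taldo1 is chr1:205922946-205923245, both on the plus strand. Capitals mark the matches found among 6 motifs.

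Tkt: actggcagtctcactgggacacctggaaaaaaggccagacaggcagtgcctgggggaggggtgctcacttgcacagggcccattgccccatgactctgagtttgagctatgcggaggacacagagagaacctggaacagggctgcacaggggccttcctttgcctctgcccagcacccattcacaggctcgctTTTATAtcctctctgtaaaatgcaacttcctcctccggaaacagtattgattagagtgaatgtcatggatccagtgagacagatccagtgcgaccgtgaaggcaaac

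Taldo1: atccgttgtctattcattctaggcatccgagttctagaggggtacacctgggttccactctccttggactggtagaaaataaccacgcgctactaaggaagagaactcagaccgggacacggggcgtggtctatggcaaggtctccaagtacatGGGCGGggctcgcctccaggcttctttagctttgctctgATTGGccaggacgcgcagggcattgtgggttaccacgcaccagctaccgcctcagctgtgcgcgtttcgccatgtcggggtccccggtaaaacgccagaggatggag

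In the Tkt promoter the capitals mark 1 match to the TATA box letters TATAAA, on the opposite strand at bases 194 to 199. In the Taldo1 promoter they mark a GC box, GGGCGG, at bases 155 to 160 and a CCAAT box, CCAAT, on the opposite strand at bases 194 to 198. GC boxes were also found in the promoters of Rpia and Rpe, and a CCAAT box in that of Rpe. The share of all 33469 promoters with a match on either strand was 14.2% for TATAAA, 33.1% for GGGCGG and 37.5% for CCAAT. The antioxidant response element core TGACNNNGC (12.1% of all promoters), the SF-1 motif AAGGTCA (4.61%) and the E-box CACGTG (6.42%) matched in 0 of the 5 member promoters at hand. No motif overlapped another in the stretches shown, and a match of letters is not a binding site. GC made up 54.3% of the Tkt stretch and 57.3% of that of Taldo1, with a median of 51.7% over all promoters.

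In the comparison of PCOS with Control, which asks what the letrozole and high-fat diet model changed, 0 of the 6 members passed the test. Over all 13430 tested genes, limma called 27.4% at an adjusted p under 0.05, with 11.9% higher and 15.6% lower in PCOS. Of the members, 3 had a higher and 3 a lower mean on the log2(FPKM + 1) scale. Their median log2 fold change was 0.10, against -0.03 over all genes tested. At an unadjusted p under 0.05 from limma, 1 member passed, Tkt. Among all genes tested, at least the 27.4% called after adjustment pass that threshold too, and the full share was not counted.

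Tkt (ENSRNOG00000016064), transketolase, lies on chromosome 16 from 6609668 to 6634595 on the plus strand with 15 exons, in the coordinates of the authors' file, whose build is not given in the sources used here. It was at 202, 162, 89.6 and 113 FPKM in the Control rats, at 207, 254, 192 and 207 FPKM in the PCOS rats and in the PCOS-MV rats at 169, 139, 112 and 134 FPKM. The PCOS rats held the 3 highest values and the fifth highest of the 12. Control replicate 1 lay inside the PCOS range, and the other Control rats lay below it. The mean was 142 ± 50.4 FPKM in Control, 215 ± 27.1 FPKM in PCOS and 139 ± 23.6 FPKM in PCOS-MV (SD, n = 4). The log2 fold change from Control to PCOS was 0.66 (95% confidence interval 0.12 to 1.20), with an adjusted p of 0.0705 from limma. The exact two-sided permutation test gave p = 0.0571, where 4 rats against 4 allow no p below 0.0286. The call turned on the Control libraries and on the fit. Without Control replicate 1 the log2 fold change was 0.85 with an adjusted p of 0.0172 from limma. That was the only 1 of the 8 fits leaving out 1 library that passed. Over those fits the log2 fold change went down to 0.46. The adjusted p from limma reached 0.165, without PCOS replicate 2. Without Control replicates 1 and 3 the log2 fold change was 0.65 with an adjusted p of 0.0348, and with 1 model for all 12 libraries the adjusted p was 0.046.

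The next enzyme of the branch did not follow this order. Taldo1 (ENSRNOG00000018367), transaldolase, lies on chromosome 1 from 214375515 to 214385885 on the plus strand with 8 exons. It was at 100.5, 89.3, 81.1 and 76.7 FPKM in the Control rats and at 81.6, 86.9, 80.9 and 91.1 FPKM in the PCOS rats. The PCOS values all lay inside the Control range. The log2 fold change was -0.02 (95% confidence interval -0.24 to 0.19, adjusted p = 0.877 from limma), and its sign turned when the libraries were rescaled by their median ratio, to 0.01, and without Control replicates 1 and 3, to 0.04 (adjusted p = 0.803).

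The 2 enzymes that act on ribulose phosphate did not pass between PCOS and Control. Rpia (ENSRNOG00000005576), the isomerase, lies on chromosome 4 from 98568028 to 98593664 on the minus strand with 9 exons. It was at 15.6, 16.5, 12.4 and 15.5 FPKM in the Control rats and at 19.2, 17.4, 12.6 and 21.3 FPKM in the PCOS rats. In each group replicate 3 was the lowest, and the groups overlapped through that PCOS rat alone. From Control to PCOS the log2 fold change was 0.20 (95% confidence interval -0.15 to 0.56, adjusted p = 0.37 from limma). It was 0.35 without PCOS replicate 3 (adjusted p = 0.0721), the highest with 1 library left out, and 0.11 without Control replicates 1 and 3 (adjusted p = 0.71).

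Rpe (ENSRNOG00000038085), the epimerase, lies on chromosome 9 on the plus strand and has 2 transcripts in the table, from 73687743 to 73710726 and from 73687786 to 73711571. It was at 23.6, 24.1, 23.9 and 24.1 FPKM in the Control rats and at 23.5, 22.9, 23.5 and 21.3 FPKM in the PCOS rats. All PCOS values lay below all Control values, as in 31.0% of the genes tested, with a gap between 23.48 FPKM in PCOS replicate 3 and 23.61 FPKM in Control replicate 1. The exact two-sided permutation test gave its smallest p, 0.0286, while limma gave a log2 fold change of -0.07 with an adjusted p of 0.424, or -0.08 without Control replicates 1 and 3 (adjusted p = 0.492). Rpe was the steadiest member. Its coefficient of variation over the 12 libraries was 4.57%, and 0.246% of the genes tested had a lower one. The same measure was 29.7% for Tkt, with a median of 18.4% over the genes tested.

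Pgls (ENSRNOG00000018326), the lactonase, lies on chromosome 16 from 20020444 to 20025930 on the plus strand with 5 exons. It was at 25.0, 19.4, 13.9 and 13.5 FPKM in the Control rats and at 17.3, 19.2, 15.4 and 17.9 FPKM in the PCOS rats. The PCOS values fell inside the wider Control range, and the SD was 5.43 FPKM in Control against 1.59 FPKM in PCOS. The log2 fold change was -0.0013 (95% confidence interval -0.42 to 0.42, adjusted p = 0.997 from limma), a value whose sign turned to 0.0006 with a pseudocount of 0.1, to 0.03 with median-ratio scaling and to 0.10 without Control replicates 1 and 3 (adjusted p = 0.683).

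H6pd (ENSRNOG00000017523) lies on chromosome 5 from 166998881 to 167030441 on the minus strand with 5 exons. It was at 19.3, 17.2, 25.6 and 17.4 FPKM in the Control rats and at 20.8, 21.5, 25.4 and 24.4 FPKM in the PCOS rats. Control replicate 3, the library with the most Adipoq, Pax8 and Cnn1, was above all PCOS rats, and the other 3 Control rats were below them. In limma the log2 fold change was 0.22 (95% confidence interval -0.08 to 0.51, adjusted p = 0.256). H6pd passed in 1 of 8 fits that left out 1 library, with an adjusted p of up to 0.465 in the others. In the fit that passed, without Control replicate 3, the log2 fold change was 0.34 with an adjusted p of 0.0291. Without Control replicates 1 and 3 it was 0.39 with an adjusted p of 0.0353. Leaving out both of those libraries made 2 members pass, Tkt and H6pd, where 0 had passed. The share of all genes tested that passed in that fit is not given here, so this count has no background beside it.

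**Figure D2:**
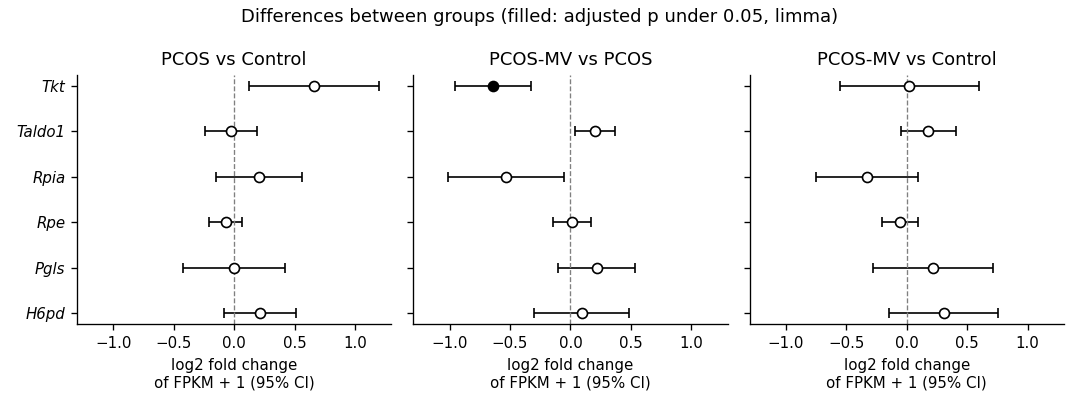
Log2 fold change of FPKM + 1 (horizontal axis) with its 95% confidence interval for the 6 enzymes in the 3 comparisons, from limma with 4 libraries per group. The filled point, Tkt in PCOS-MV against PCOS at -0.64, is the single value with an adjusted p under 0.05.

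In the comparison of PCOS-MV with PCOS, which asks what followed mogroside V in the model, 1 of the 6 members passed the test, Tkt, which fell. The background was 25.7% of the genes tested, with 14.3% higher and 11.4% lower in PCOS-MV. This comparison shares its 4 PCOS libraries with the preceding one. The members' median log2 fold change was 0.05, against 0.03 over all genes tested.

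All PCOS-MV values of Tkt lay below all PCOS values, where groups did not overlap for 30.0% of the genes tested. Tkt fell by 0.64 on the log2 scale (95% confidence interval -0.95 to -0.32), with an adjusted p of 0.0113 from limma. The exact two-sided permutation test gave p = 0.0286, the smallest it can give. Over the 8 fits that left out 1 library, the log2 fold change stayed between -0.74 and -0.54 and the adjusted p between 0.00577 and 0.0325. With 1 model for all 12 libraries, where the wide Control values enter the spread, the adjusted p was 0.0559 and the call was lost.

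Markers of ovarian cell types moved between the same groups. Summed over the 6 theca and interstitial markers, FPKM was 169 to 230 in Control, 1779 to 3368 in PCOS and 141 to 250 in PCOS-MV. Most of the sum in PCOS came from Cyp17a1, at 655 to 1866 FPKM, and Insl3, at 906 to 1188 FPKM. In Control these were at 17.0 to 63.6 and 1.76 to 8.84 FPKM. In PCOS-MV against PCOS 4 of the 6 fell, Cyp17a1 and Insl3 among them. The 8 granulosa markers summed to 627 to 873 FPKM in Control, 1080 to 1531 FPKM in PCOS and 618 to 1074 FPKM in PCOS-MV, where 3 of 8 fell. The 6 luteal markers tested summed to 4279 to 8015 FPKM in Control, 1828 to 3467 FPKM in PCOS and 2961 to 6929 FPKM in PCOS-MV, where 2 rose and 1 fell. In PCOS against Control, 5 theca markers rose and 1 fell, 4 granulosa markers rose, and 1 luteal marker rose and 4 fell. Oocyte markers were low, as Zp1, Ddx4 and Figla had means under 1 FPKM and 0 of the 4 tested passed in either comparison. Of 5 endothelial markers tested 1 rose and 4 fell in PCOS and 2 rose in PCOS-MV, and of 7 leukocyte markers 2 rose in PCOS, and 1 rose and 2 fell in PCOS-MV. None of the 5 smooth muscle and 2 oviduct markers tested passed in either comparison. No marker was at 0 in all libraries. Their part in the values of Tkt and of the genes below was not tested. In RNA from whole ovary, fewer cells of a type and less RNA per cell cannot be told apart.

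Taldo1 was at 90.8, 96.5, 103 and 102 FPKM in the PCOS-MV rats. The lowest of these lay just inside the PCOS range, below the 91.1 FPKM of PCOS replicate 4, and the other 3 lay above all PCOS rats. The log2 fold change was 0.20 (95% confidence interval 0.04 to 0.37) with an adjusted p of 0.0747 from limma, and the exact two-sided permutation test gave p = 0.0571. Its point estimate was positive and that of Tkt negative in the same libraries.

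The ratio of Tkt to Taldo1 within a library puts both enzymes on 1 scale. It was 2.01, 1.82, 1.10 and 1.48 in the Control rats, 2.54, 2.93, 2.37 and 2.27 in the PCOS rats and 1.87, 1.44, 1.09 and 1.31 in the PCOS-MV rats. The 4 PCOS ratios lay above all others, and those of Control and PCOS-MV overlapped. The ratio was chosen after the values of both genes were seen and was not tested. Tkt made up 54.0% to 60.2% of the summed FPKM of the 6 members in PCOS, 36.4% to 52.4% in Control and 39.6% to 49.5% in PCOS-MV.

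**Figure D3:**
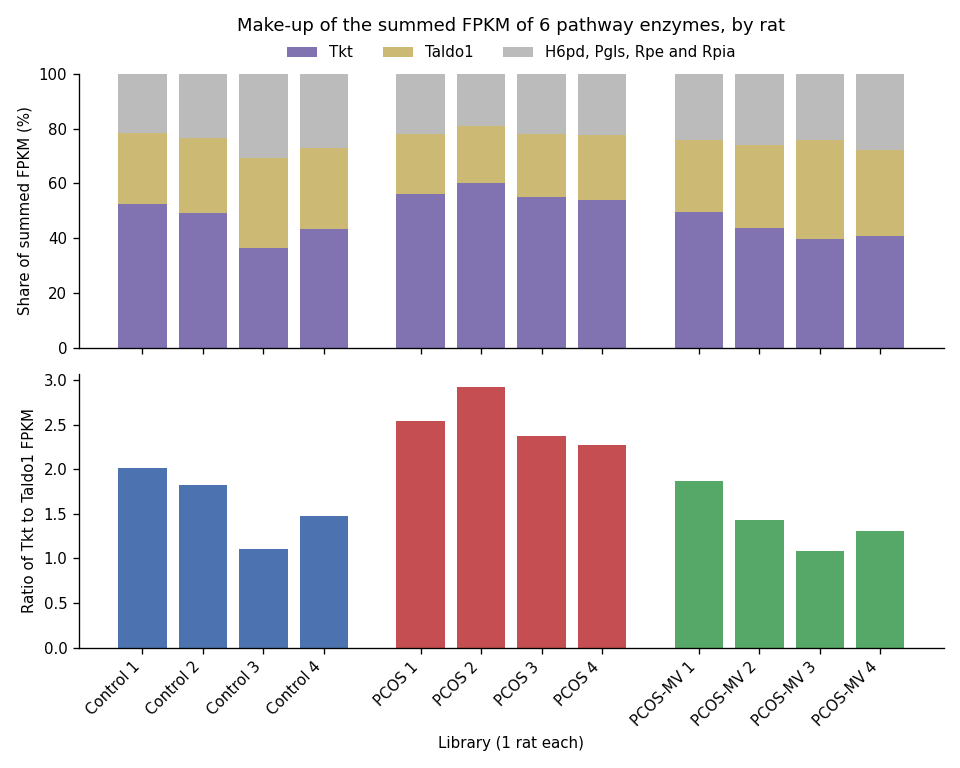
Top, share of the summed FPKM of the 6 members taken by Tkt, Taldo1 and the other 4 in each of the 12 libraries (percent). Bottom, the ratio of Tkt to Taldo1 FPKM in the same libraries, which lies between 2.27 and 2.93 in the PCOS rats and at or below 2.01 in the others.

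Rpia was at 17.1, 10.0, 8.92 and 12.1 FPKM in the PCOS-MV rats. The last 3 of these were below all PCOS rats, and replicate 1 was inside the PCOS range. Against PCOS this gave a log2 fold change of -0.53 (95% confidence interval -1.01 to -0.05) with an adjusted p of 0.1 from limma, and the exact two-sided permutation test gave p = 0.0571. Without PCOS-MV replicate 1 the log2 fold change was -0.70 with an adjusted p of 0.0277. In the other fits that left out 1 library Rpia did not pass, with an adjusted p of up to 0.223 from limma.

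Rpe, Pgls and H6pd did not pass. Rpe was at 23.6, 24.7, 21.4 and 22.5 FPKM in the PCOS-MV rats, and the log2 fold change of 0.01 (95% confidence interval -0.14 to 0.17) turned to -0.01 with median-ratio scaling. Pgls was at 23.8, 19.7, 15.4 and 23.8 FPKM, of which 3 lay above all PCOS rats. Its log2 fold change was 0.22 (adjusted p = 0.287 from limma), and without PCOS-MV replicate 3 it was 0.35 with an adjusted p of 0.0435. The other fits that left out 1 library did not pass for Pgls, with an adjusted p of up to 0.508. H6pd was at 17.8, 28.0, 22.2 and 32.6 FPKM, the widest spread of its 3 groups (SD 6.48 FPKM, n = 4). Its log2 fold change was 0.09 (95% confidence interval -0.30 to 0.48) and turned to -0.04 without PCOS-MV replicate 4.

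Between PCOS-MV and Control, 0 of the 6 members passed, with a background of 0.00745%, 1 gene of those tested. The groups overlapped for each of the 6, as they did not for 5.10% of the genes tested. At an unadjusted p under 0.05 from limma the count was also 0, and the share of all genes tested at that threshold was not counted. The log2 fold change of Tkt was 0.02 (95% confidence interval -0.55 to 0.60). It turned to -0.18 without Control replicate 3, to -0.06 without Control replicate 4 and to -0.08 without PCOS-MV replicate 1. The widest gaps between these groups were those of Rpia, with -0.33 (95% confidence interval -0.75 to 0.10), and of H6pd, with 0.31 (95% confidence interval -0.14 to 0.76). Without Control replicates 1 and 3, 0 members passed, and the log2 fold change was 0.02 for Tkt, -0.42 for Rpia, 0.48 for H6pd, 0.31 for Pgls, 0.24 for Taldo1 and -0.07 for Rpe. With all Control rats, the intervals of Tkt, Pgls, Rpia and H6pd each include differences of more than 0.5 on the log2 scale, so likeness of the 2 groups in these genes was not shown.

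Of 18 listed genes for other enzymes of pentoses and of the sugar phosphates shared with glycolysis, 14 were tested. In PCOS against Control 1 rose and 3 fell, and in PCOS-MV against PCOS 4 rose and 0 fell. In each comparison 28.6% of the 14 were called, close to the 27.4% and 25.7% of all genes tested. The median log2 fold change of the 14 was -0.06 in the former and 0.20 in the latter. Of the paralogs of Tkt, Tktl2 was at 0.0124 FPKM in PCOS-MV replicate 3, the highest value in any library, and Tktl1 is not analysed here.

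Tigar, a phosphatase that lowers fructose bisphosphate and so directs glucose phosphate towards the pathway, was at 12.4, 11.3, 7.02 and 11.5 FPKM in Control, at 3.48, 3.08, 3.51 and 3.43 FPKM in PCOS and at 10.3, 5.96, 8.26 and 5.61 FPKM in PCOS-MV. The PCOS rats lay below all other rats. Tigar fell by 1.37 on the log2 scale from Control to PCOS (adjusted p = 0.000382 from limma). From PCOS to PCOS-MV it rose by 0.93 (adjusted p = 0.00493 from limma). The calls were kept in all fits that left out 1 library. Its log2 fold change was opposite in sign to that of Tkt in both comparisons.

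Pgm2, which converts ribose and deoxyribose phosphates between their isomers, was at 15.4 ± 1.88 FPKM in Control, 9.03 ± 0.24 FPKM in PCOS and 14.2 ± 1.83 FPKM in PCOS-MV (SD, n = 4). In PCOS it dropped by 0.71 (log2; adjusted p = 0.000777, limma), and in PCOS-MV it gained 0.59 (adjusted p = 0.00277). The PCOS rats did not overlap with either group. Prps2, which activates ribose phosphate to PRPP for nucleotide synthesis, was highest in PCOS. It was at 31.5 ± 3.02 FPKM in Control, 50.2 ± 2.85 FPKM in PCOS and 38.4 ± 8.08 FPKM in PCOS-MV. It rose by 0.66 in PCOS (adjusted p = 0.00069 from limma). In PCOS-MV its log2 fold change was -0.40 (adjusted p = 0.0664), and without PCOS-MV replicate 4 it was -0.51 with an adjusted p of 0.0259. It passed also with 1 model for all 12 libraries (adjusted p = 0.0427) and with median-ratio scaling (0.0437). In the other fits that left out 1 library it did not pass, with an adjusted p of up to 0.135 from limma.

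Glyctk, a glycerate kinase, fell by 0.30 in PCOS (limma, adjusted p = 0.0475), and the step to PCOS-MV was 0.34 (adjusted p = 0.0536). The fall passed in 1 of the 8 fits that left out 1 library, the one without PCOS replicate 2, and the adjusted p reached 0.111 without PCOS replicate 3. It was also lost with no filter on low values (adjusted p = 0.0588), with median-ratio scaling (0.0744) and without Control replicates 1 and 3 (0.168), while the step to PCOS-MV passed with 1 model for all 12 libraries (0.0306) and without the trend (0.0471). Pgm1 and Dera, the other 2 genes that rose in PCOS-MV beside Tigar and Pgm2, were outside the naming rule and were chosen after their values were seen. Pgm1, which interconverts glucose phosphates, rose by 0.32 (adjusted p = 0.00812), and Dera, which cleaves deoxyribose phosphate, by 0.24 (adjusted p = 0.0439). The call of Dera was kept in 2 of 8 fits that left out 1 library, those without PCOS-MV replicate 1 or 3, with an adjusted p of up to 0.106 in the others, and was lost without the trend (0.0544).

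**Figure D4:**
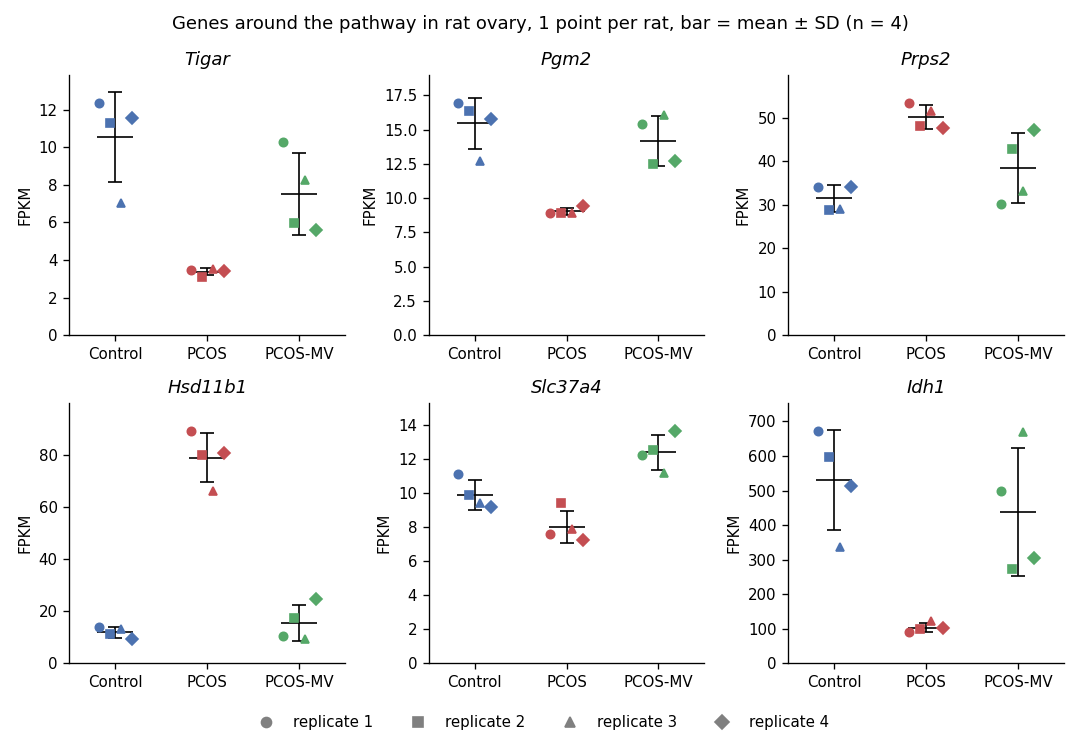
FPKM (vertical axis, from 0) of 6 genes around the pathway in each rat, with the group mean and SD as bars (n = 4). Tigar, Pgm2 and Idh1 are lower in all 4 PCOS rats than in every other rat, Prps2 and Hsd11b1 are higher in all 4 PCOS rats than in every other rat, and Slc37a4 is higher in all PCOS-MV rats than in the PCOS rats.

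H6pd works in the endoplasmic reticulum beside Hsd11b1, which uses its NADPH, and Slc37a4, the carrier of its substrate. Hsd11b2 and G6pc3 were listed with them as partner genes but do not use that NADPH. Of these 4 genes, all tested, 1 rose and 1 fell in PCOS against Control, and 2 rose and 1 fell in PCOS-MV against PCOS. The shares called were 50% and 75%, against 27.4% and 25.7% of all genes tested. Hsd11b1, which reactivates corticosterone with the NADPH that H6pd makes, was at 14.0, 11.2, 13.0 and 9.41 FPKM in Control, at 89.05, 79.8, 65.9 and 80.6 FPKM in PCOS and at 10.7, 17.2, 9.27 and 24.6 FPKM in PCOS-MV. The PCOS rats lay far above all others. Limma gave a log2 fold change of 2.63 from Control to PCOS (adjusted p = 8.44e-06) and -2.37 from PCOS to PCOS-MV (adjusted p = 0.000642). H6pd itself was at 19.9 ± 3.90, 23.0 ± 2.24 and 25.2 ± 6.48 FPKM in these groups (SD, n = 4) and passed in neither comparison.

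Hsd11b2, which inactivates corticosterone, was at 4.14 ± 2.26 FPKM in Control, 1.46 ± 0.26 FPKM in PCOS and 3.58 ± 1.46 FPKM in PCOS-MV (SD, n = 4). In limma its fall in PCOS was called (log2 fold change -0.95, adjusted p = 0.0441), as was its rise of 0.83 in PCOS-MV (adjusted p = 0.0467). Each call was kept in 1 of 8 fits that left out 1 library. The fall passed without Control replicate 4 (adjusted p = 0.00502) and the rise without PCOS-MV replicate 3 (adjusted p = 0.000518), with adjusted p of up to 0.106 and 0.113 in the other fits. Both calls were lost with no filter on low values (adjusted p = 0.0787 and 0.0823) and with 1 model for all 12 libraries (0.0506 and 0.0905). Without Control replicates 1 and 3 the log2 fold change in PCOS was -0.61 with an adjusted p of 0.154. Slc37a4, which carries glucose phosphate into the endoplasmic reticulum, was at 9.88 ± 0.86 FPKM in Control, 8.02 ± 0.95 FPKM in PCOS and 12.4 ± 1.02 FPKM in PCOS-MV. It rose by 0.57 in PCOS-MV (adjusted p = 0.00356 from limma) in all 8 fits that left out 1 library. Its log2 fold change in PCOS was -0.27 (adjusted p = 0.0651), and without PCOS replicate 2 it was -0.34 with an adjusted p of 0.0325. With 1 model for all 12 libraries that adjusted p was 0.0454. In the other fits that left out 1 library it did not pass and reached 0.162 from limma. Without Control replicates 1 and 3 it was 0.195.

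Among 13 tested genes of other routes to NADPH and NADP, 0 rose and 4 fell in PCOS against Control, while 2 rose and 0 fell in PCOS-MV against PCOS. The shares called, 30.8% and 15.4%, compare with 27.4% and 25.7% of all genes tested. Idh1, the cytosolic isocitrate dehydrogenase that makes NADPH, was more abundant than Tkt in the Control group. It was at 672, 596, 335 and 513 FPKM in Control, at 89.5, 99.3, 123 and 102 FPKM in PCOS and at 499, 273, 670.2 and 306 FPKM in PCOS-MV. The PCOS rats lay below all others, and in them Tkt exceeded Idh1. In limma, Idh1 fell by 2.31 in PCOS (adjusted p = 0.000108), and its rise in PCOS-MV was 1.98 (adjusted p = 0.0015). Nadk2, the mitochondrial NAD kinase, fell by 0.84 in PCOS (adjusted p = 0.0129).

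The other falls in this list were smaller. Aldh1l1, a folate enzyme that makes NADPH, fell by 0.55 (adjusted p = 0.0252 from limma) and kept its call in 3 of 8 fits that left out 1 library, those without Control replicate 3 and without PCOS replicate 1 or 2. Me2, a mitochondrial malic enzyme that mainly makes NADH, fell by 0.39 (adjusted p = 0.049). It kept its call in 2 of 8, those without Control replicate 3 or PCOS replicate 1. In the other fits that left out 1 library the adjusted p reached 0.0684 for Aldh1l1 and 0.125 for Me2. With 1 model for all 12 libraries both calls were lost (adjusted p = 0.0965 for Aldh1l1 and 0.0537 for Me2). That of Me2 was also lost with no filter on low values (0.072), with median-ratio scaling (0.053), without the trend (0.0563) and without Control replicates 1 and 3 (0.0693).

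Among 15 tested enzymes that use NADPH, or that pass on its electrons, 1 rose and 7 fell in PCOS against Control, and 5 rose and 0 fell in PCOS-MV against PCOS. These were 53.3% and 33.3% of the list, against 27.4% and 25.7% of all genes tested, and the median log2 fold change was -0.58 and 0.36. Txnrd2 and Txnrd1, the mitochondrial and cytosolic thioredoxin reductases, fell by 0.57 (limma, adjusted p = 0.00129) and 0.71 (adjusted p = 0.00154) in PCOS. Txnrd2 rose by 0.42 in PCOS-MV (adjusted p = 0.011), and Txnrd1 had a log2 fold change of 0.36 (adjusted p = 0.126). Cyb5r3, a cytochrome b reductase that mainly draws on NADH, was the gene that rose, by 0.55 (adjusted p = 0.00159).

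Among 18 tested genes of purine and pyrimidine synthesis, which takes up the ribose that Rpia makes, 3 rose and 5 fell in PCOS against Control, and 4 rose and 3 fell in PCOS-MV against PCOS. The list thus had 44.4% and 38.9% of its genes called, against 27.4% and 25.7% of all genes tested. Gart, a trifunctional purine enzyme, rose from 15.2 ± 0.59 to 22.03 ± 1.53 FPKM in PCOS (SD, n = 4, adjusted p = 0.00105 from limma) and fell to 16.2 ± 2.25 FPKM in PCOS-MV (adjusted p = 0.0182). Dhodh, which oxidises dihydroorotate in mitochondria, rose by 0.74 in PCOS (adjusted p = 0.00523) and fell by 0.71 in PCOS-MV (adjusted p = 0.0195). The fall of Dhodh did not pass without PCOS replicate 1 (adjusted p = 0.0516) or PCOS replicate 3 (adjusted p = 0.0525). Ppat, which takes PRPP into purine synthesis, fell by 0.84 in PCOS (adjusted p = 0.00263), and its log2 fold change in PCOS-MV was 0.43 (adjusted p = 0.0986), or 0.55 without PCOS-MV replicate 4 (adjusted p = 0.045). The other fits that left out 1 library did not pass for Ppat in PCOS-MV, with an adjusted p of up to 0.198. Ctps1, which makes CTP, fell by 1.17 in PCOS (adjusted p = 0.00328) and had a log2 fold change of 1 in PCOS-MV (adjusted p = 0.00726). The 6 proliferation markers summed to 72.8 to 140 FPKM in Control, 69.1 to 94.0 FPKM in PCOS and 71.8 to 119 FPKM in PCOS-MV, with 1 of 6 lower in PCOS and 0 of 6 called in PCOS-MV.

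Nfe2l2, a transcription factor known to raise Tkt and Taldo1 under oxidative stress, was at 60.0 ± 6.61 FPKM in Control, 77.0 ± 10.3 FPKM in PCOS and 66.5 ± 8.37 FPKM in PCOS-MV (SD, n = 4). PCOS exceeded Control by 0.35 on the log2 scale (limma, adjusted p = 0.0569), and the step to PCOS-MV was -0.21 (adjusted p = 0.257). Without Control replicate 1 or PCOS replicate 3 the adjusted p in PCOS was 0.0492 and 0.034, and with median-ratio scaling it was 0.0366. The other fits that left out 1 library did not pass, with an adjusted p of up to 0.145 from limma. Without Control replicates 1 and 3 it was 0.129. Of 10 tested genes of its list, 2 rose and 2 fell in PCOS, and 1 fell in PCOS-MV. The shares called were 40% and 10%, against 27.4% and 25.7% of all genes tested. The 10 include Nfe2l2 itself and Keap1, so they are not all its targets. The 2 that fell in PCOS, Gsr and Txnrd1, were also counted among the enzymes that use NADPH, as was Nqo1. Me1 was also counted among the other routes to NADPH, so these lists are not separate. Slc7a11, the cystine transporter, rose from 0.59 ± 0.11 to 29.1 ± 15.7 FPKM in PCOS (adjusted p = 4.95e-05) and was at 0.74 ± 0.41 FPKM in PCOS-MV (adjusted p = 0.000181). Gsr, glutathione reductase, fell by 0.44 in PCOS (adjusted p = 0.00536). Keap1, which holds Nfe2l2 back, rose by 0.20 (adjusted p = 0.0354), a call kept in 1 of 8 fits that left out 1 library, the one without Control replicate 3, with an adjusted p of up to 0.104 in the others. It was lost without Control replicates 1 and 3 (adjusted p = 0.081). The listed genes did not share a direction.

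The members did not vary as a block across the 12 libraries. Of the 15 pairs of members, the highest Pearson correlation of log2(FPKM + 1) was 0.661, between Taldo1 and Pgls, and the next was 0.649, between Tkt and Rpia. Tkt and Taldo1 had a correlation of 0.006, and H6pd and Rpia the lowest, -0.480. These correlations describe libraries that share group, dissection and normalization, and no p is given. The genes whose levels were most like those of Tkt were Psme1, a proteasome activator subunit, with a correlation of 0.966, Bloc1s5 with 0.949 and Nt5c3b with 0.945 (n = 12). Those nearest to Taldo1 were Sumf2 with 0.896, Paqr8 with 0.867 and Agpat2 with 0.866.

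For the other members the nearest genes differed from one to the next. Pgls was nearest to Atp5mc1, a subunit of the mitochondrial ATP synthase, with a correlation of 0.947 and near to Abhd8 with 0.941. Rpe was nearest to Tial1 with 0.912, Faf1 with 0.840 and Tnfrsf17 with 0.835. Rpia was nearest to Qtrt1 and Siae, both with 0.873, and Socs2 with 0.872. H6pd was nearest to Anapc11 and Il17re, both with 0.921, and Ebpl with 0.897. No member was among the nearest genes of another. Within single groups of 4 libraries, the correlations of members with these genes ranged from -0.331, for Taldo1 and Paqr8 in PCOS, to 0.999, for H6pd and Il17re in Control.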

How the data were processed

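Ovary RNA of 12 rats was sequenced as 1 library per rat with 150 bp paired ends, and groups were taken from the titles and treatments in the labels, doses and diet from the study's methods. The authors deposited FPKM per gene, repeated on each of 26928 transcript lines. The study's methods name HISAT2 and featureCounts, while the submitters' processing notes name STAR 2.5.1b and HTSeq 0.6.0, so the tools behind the FPKM are uncertain. The deposited columns of fold changes and p-values were not used. Columns named MG were matched to PCOS-MV, the remaining group. The members and gene lists were chosen with earlier results of these data known.

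Groups were compared in pairs, 4 libraries against 4, over genes whose mean reached 1 FPKM. The test was limma (version 3.58.1, R 4.3.3, eBayes with trend) on log2(FPKM + 1). P-values were adjusted by Benjamini-Hochberg over 13430 genes, with a threshold of 0.05. This scale understates fold changes of genes with low FPKM. For single genes an exact permutation test, two-sided, was run with scipy 1.17.1. The limma step was tested on simulated data.

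From each metabolic list, up to 4 genes called in either of the main comparisons were named in order of adjusted p in PCOS against Control, with Hsd11b1 and Nfe2l2 in any case, while markers are given by counts and sums. Some genes that the naming rules select are not reported here. Alternatives covered the pseudocount, the filter, the model, the replicate block, median-ratio scaling, the trend and each library left out. Depth was estimated from the spacing of the lowest FPKM times transcript length. Promoters came from RefSeq (GRCr8) and matched 5 of the 6 members.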

Additional observations from a re-analysis of the deposited data

Results flagged for a closer look

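In groups of 4 rats, 6 values stood apart from the other 3 of their group by Dixon's test, among 93 groups examined for 31 genes, where chance alone flags about 4.65. None was a value of a pathway enzyme. Pgm2 in PCOS replicate 4 was at 9.39 FPKM, above 8.88 to 8.94 FPKM in the other PCOS rats. Hsd11b2 in PCOS-MV replicate 3 was at 1.40 FPKM, below 4.20 to 4.50 FPKM in the others. Aldh1l1 in Control replicate 3 was at 22.6 FPKM, below 32.5 to 33.8 FPKM, and Txnrd2 in the same library was at 13.2 FPKM, below 15.9 to 16.3 FPKM. In PCOS replicate 1, Me2 was at 37.8 FPKM, above 27.2 to 27.7 FPKM, and Gart at 24.3 FPKM, above 21.0 to 21.5 FPKM.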

How the results depend on the processing

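Tkt was lower in PCOS-MV than in PCOS in every alternative run. Members called in that comparison numbered 1, but 0 with 1 model for all 12 libraries and 2 with the replicate block, where Rpia was added (adjusted p = 0.0321 from limma), and 1 to 2 over the fits that left out 1 library. In PCOS against Control the count was 0, but 1 with 1 model for all 12 libraries, 2 without Control replicates 1 and 3 and 0 to 1 over the fits that left out 1 library. With 1 library left out, limma called 1218 to 1639 of the 13430 tested genes higher and 1539 to 2276 lower in PCOS. In PCOS-MV against PCOS it called 1272 to 1934 higher and 1167 to 1420 lower. For the other alternatives the share of all genes called is not given here. Signs turned for differences near 0. In PCOS against Control, Pgls turned to 0.000636 with a pseudocount of 0.1, 0.0345 with median-ratio scaling and 0.09575 without Control replicates 1 and 3 (-0.116 to 0.166 with 1 library left out), Taldo1 to 0.0139 with median-ratio scaling and 0.0381 without Control replicates 1 and 3 (-0.081 to 0.0477), and Dera to 0.0066 with median-ratio scaling. In PCOS-MV against PCOS, Rpe turned to -0.00758 with median-ratio scaling (-0.0177 to 0.0481) and H6pd ranged from -0.0389 to 0.24. In PCOS-MV against Control, Tkt ranged from -0.18 to 0.21. Genes called higher in PCOS-MV against PCOS numbered 1918, ranged from 1272 to 1934 with 1 library left out, and fell to 1278 without PCOS replicate 2 and 1272 without PCOS replicate 4. In PCOS-MV against Control, 1 gene was called higher and 0 lower. With a mean of at least 5 FPKM and with the replicate block 0 were higher, with 1 model 0 were higher and 1 lower, and with 1 library left out 1 to 2 were higher and 0 to 2 lower. The causes of these shifts were not tested. Replicate numbers were not taken to pair the rats, since the labels give no shared batch and not every pair correlated by over 0.1. Deviations of same-numbered rats correlated by -0.0327 to 0.0236 in PCOS against Control, 0.0353 to 0.172 in PCOS-MV against PCOS and -0.0534 to 0.216 in PCOS-MV against Control, and 0, 3 and 1 of 4 numbers correlated best with their own. In PCOS-MV against PCOS 3 of the 4 were over 0.1. With the replicate block, Dhodh (adjusted p = 0.0517) and Dera (0.0641) did not pass in that comparison, nor Glyctk (0.133), Hsd11b2 (0.0733) and Keap1 (0.102) in PCOS against Control, where Nfe2l2 passed (0.0284). Of the members' 282 alternative values, 256 kept their sign and side of the threshold. At the estimated depth, counting error was at most 4.10% for the members with an estimate, which leaves out Rpe with its 2 transcripts.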
